A study of Mus musculus with 27 samples.

Results

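The proteasome subunit genes are described here in mouse splenic B cells that were stimulated through CD40 with or without IL-4 and IL-21. The members are the protein-coding mouse genes whose symbols begin with Psma to Psmg followed by a number, without the interferon-inducible subunits Psmb8, Psmb9 and Psmb10. The rule found 47 of the 35604 rows of the expression table. Of these, 45 passed the filter on low values, 1 TPM or more in at least 3 libraries, as did 12147 rows in all. TPM is a level that is scaled to transcript length and to a fixed library total. Psma8, a testis-enriched α subunit, stayed between 0 and 0.915 TPM, and Psmb11, the thymus-specific β subunit, between 0 and 0.656 TPM, so neither was tested. By role, the tested members are 7 α-ring and 7 β-ring genes of the 20S core, 6 ATPase and 11 non-ATPase genes of the 19S cap, 5 activator genes, 1 inhibitor gene and 7 assembly factors. The symbol pattern also takes in Psmc3ip, which encodes a recombination factor and no proteasome subunit, and it is kept apart, although the counts over 45 members below include it.

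The cells were primary B cells from the spleens of wild-type mice, in 9 groups of 3 libraries of poly(A)-selected RNA. At 6 h and again at 24 h there were 4 groups: anti-CD40 with both IL-4 and IL-21, anti-CD40 with IL-21, anti-CD40 with IL-4, and anti-CD40 alone; the ninth group was naive cells, labelled 0 h. All 8 stimulated groups received the CD40-activating antibody HM40-3 at 1 µg/mL, IL-4 was used at 12.5 ng/mL and IL-21 at 50 ng/mL. CD40 stands in here for contact with helper T cells, and IL-4 and IL-21 are cytokines of such T cells. The naive group had neither antibody nor time in stimulated culture, so stimulation and time in culture cannot be told apart against it. Nothing in the labels says whether the libraries of a group came from separate animals or cultures, so p-values measure only the spread between these libraries. The age and sex of the mice are not given in the sources used here.

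The proteasome is the protease that degrades ubiquitin-tagged proteins in the cytosol and nucleus. Its 20S core is a barrel of outer α rings, which gate entry, and inner β rings, in which Psmb5, Psmb6 and Psmb7 encode the constitutive catalytic subunits. The 19S cap docks on the α ring: its ATPase ring unfolds the substrate and its non-ATPase subunits bind ubiquitin chains and remove them. PA28 activators, encoded by Psme1 and Psme2, can replace the cap, and in lymphocytes Psmb8, Psmb9 and Psmb10 can replace the catalytic subunits to form the immunoproteasome. B cells are known to enlarge their protein-making machinery upon activation, and proteasome gene expression in mammals is known to be raised by the factor NRF1, encoded by Nfe2l1, through antioxidant response elements.

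Promoter windows were read for 4 members on which the results below turn: the catalytic genes Psmb5 and Psmb6, the ATPase gene Psmc4, which differed most between IL-21 and IL-4 among the ATPases, and the α-ring gene Psma7, which was high in every stimulated group. Each window runs from 250 bases before to 50 bases after the RefSeq gene start on GRCm38.p6 and is written 5′ to 3′ on the gene's strand. Capitals mark matches on either strand to the antioxidant response element core TGACNNNGC, to CCAAT, and to the GC box GGGCGG. The Psmb5 window is chr14:54617946-54618245 (minus strand), that of Psmb6 chr11:70525107-70525406 (plus strand), that of Psmc4 chr7:28050043-28050342 (minus strand) and that of Psma7 chr2:180042415-180042714 (minus strand).
Psmb5: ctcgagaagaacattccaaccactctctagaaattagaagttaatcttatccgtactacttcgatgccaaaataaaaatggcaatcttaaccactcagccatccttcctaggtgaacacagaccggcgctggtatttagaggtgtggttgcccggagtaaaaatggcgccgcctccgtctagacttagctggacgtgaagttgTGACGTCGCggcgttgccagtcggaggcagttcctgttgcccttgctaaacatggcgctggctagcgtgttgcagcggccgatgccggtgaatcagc
Psmb6: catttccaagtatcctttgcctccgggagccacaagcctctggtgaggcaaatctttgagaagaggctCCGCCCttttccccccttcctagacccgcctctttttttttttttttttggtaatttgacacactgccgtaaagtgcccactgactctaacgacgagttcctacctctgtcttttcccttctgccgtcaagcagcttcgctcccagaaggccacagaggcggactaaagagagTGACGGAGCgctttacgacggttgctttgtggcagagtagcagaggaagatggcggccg
Psmc4: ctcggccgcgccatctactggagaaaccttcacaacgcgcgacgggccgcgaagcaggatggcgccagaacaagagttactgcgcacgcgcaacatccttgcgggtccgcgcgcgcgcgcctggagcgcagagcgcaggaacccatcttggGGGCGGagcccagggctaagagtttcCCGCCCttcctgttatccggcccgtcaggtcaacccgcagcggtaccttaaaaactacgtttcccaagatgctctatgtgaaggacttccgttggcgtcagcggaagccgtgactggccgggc
Psma7: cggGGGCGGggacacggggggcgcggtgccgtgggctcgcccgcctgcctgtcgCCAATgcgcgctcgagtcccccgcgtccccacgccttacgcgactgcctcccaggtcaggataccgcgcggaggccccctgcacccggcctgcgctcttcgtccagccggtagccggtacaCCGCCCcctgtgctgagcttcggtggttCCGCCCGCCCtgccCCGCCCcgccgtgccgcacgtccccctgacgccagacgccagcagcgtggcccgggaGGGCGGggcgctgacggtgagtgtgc

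Psmb5 and Psmb6 each hold 1 response element core, Psmb6 also 1 GC box, Psmc4 2 GC boxes, and Psma7 1 CCAAT and 6 GC boxes, of which a pair overlaps. A window was found for 39 of the 47 members among 27025 windows. The response element core was in 6 member windows (15.4%), those of Psmb5, Psmb6, Psmc6, Psmd12, Psmd9 and Psme4, against 12.5% of all windows. GC boxes were in 22 member windows (56.4%), against 35.9% of all. CCAAT was in 14 (35.9%), against 37.9% of all, and the E-box CACGTG was in 3 (7.69%), against 7.24% of all. The STAT motif TTCNNNGAA was in 2 member windows (5.13%), those of Psmd2 and Psmg1, against 8.47% of all, and the wider-spaced STAT6-type motif was in 0, against 6.99% of all. These are matches of letters in short windows and not measured binding sites.

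Libraries were compared first. B cell markers summed to 406 to 4151 TPM in every library, with differences between groups. Their sum was 2984 to 4151 TPM in naive libraries. At 6 h it was 647 to 1075 TPM with both cytokines, 406 to 683 TPM with IL-21, 1266 to 2129 TPM with IL-4 and 1363 to 2492 TPM with anti-CD40 alone. At 24 h it was 1839 to 1909, 1412 to 1921, 1820 to 2401 and 3306 to 3636 TPM in the same order. T cell markers summed to at most 3.33 TPM, NK markers to at most 2.31 TPM and neutrophil markers to at most 0.393 TPM. Erythroid markers summed to 8.58 to 188 TPM in the stimulated libraries, against 783 to 1561 TPM in naive libraries, and macrophage markers, mostly Lyz2, to 0.550 to 9.30 TPM, against 24.5 to 35.6 TPM in naive libraries. Dendritic cell markers, mostly Zbtb46 (at most 10.1 TPM), summed to 7.003 to 7.98 TPM after 6 h of anti-CD40, 8.52 to 10.4 TPM after 6 h with IL-4 and 1.53 to 10.4 TPM over all stimulated libraries, against 1.40 to 3.39 TPM in naive libraries. The part of these markers in the differences from naive cells was not tested. In 4 libraries the mitochondrial share lay over 2.5 percentage points below both others of the group. Mitochondrial genes made up 5.50% of the listed TPM in naive replicate 1, against 12.7% and 13.5% in the other naive libraries. They made up 7.89% in replicate 1 of the 24 h anti-CD40 and IL-4 group, against 11.6% and 10.97%, and its ribosomal protein share was 23.0%, against 29.1% and 29.2%. At 6 h they made up 6.91% in replicate 3 of the anti-CD40 and IL-4 group, against 10.2% and 10.6%, and 7.27% in replicate 3 of the anti-CD40 and IL-21 group, against 10.9% and 10.2%. Counts are also given without the naive library and the 24 h library, called the low-mitochondria pair. Leaving out all 4 libraries was run as a further alternative, chosen after seeing the data. The listed TPM summed to 766384 to 825365 per library, and since TPM keeps no read total, the depth is unknown.

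The replicate spread was measured for each member. For the 34 members with a median of at least 20 TPM, the within-group coefficient of variation (the median over the 9 groups) ran from 4.03% to 34.6% with a median of 11.1%. For the 11 lower members it ran from 11.5% to 63.4% with a median of 37.2%. Psma4 (0.201 to 20.8 TPM), Psmd3 (0.0956 to 6.28 TPM), Psme3, Psme4 and Psmg1 were listed far below the other genes of their complexes, and their coefficients of variation ran from 34.9% to 63.4%. Psmd14 (37.4%) and Psmg3 (37.2%) were as variable as Psma4 (34.9%).

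Summed over the members without Psmc3ip, proteasome transcripts were lowest in naive cells. At each time they were higher in the cytokine groups than with anti-CD40 alone. At 6 h the sum averaged 8579 TPM with both cytokines, 8580 TPM with IL-21 and 8598 TPM with IL-4. With anti-CD40 alone it averaged 7731 TPM at 6 h, more than with IL-21 or with IL-4 at 24 h. Together these genes had 3845, 3020 and 3170 TPM in the naive libraries, 8211, 7490 and 7492 TPM after 6 h of anti-CD40 alone, and 5043, 4796 and 5125 TPM after 24 h. At 24 h the sum averaged 8432 ± 103 TPM with both cytokines, 7371 ± 161 TPM with IL-21 and 7506 ± 178 TPM with IL-4, against 4988 ± 172 TPM with anti-CD40 alone (SD, n = 3 each). No library of the cytokine groups at 24 h was as low as any anti-CD40 library of that time. The activator sum on its own was not higher at 24 h. It averaged 674 TPM with both cytokines, 680 TPM with IL-21 and 711 TPM with IL-4, against 796 TPM with anti-CD40 alone. Of all listed TPM, the members without Psmc3ip made up 0.899% to 1.10% in the cytokine libraries at 24 h and 0.588% to 0.646% with anti-CD40 alone, and 0.370% to 0.491% in naive cells. In these bulk samples fewer cells of a type and less RNA per cell cannot be told apart. The moderated F test over the 9 groups passed adjusted p = 0.05 for 44 of 45 tested members, against 77% of all genes tested. The member that missed was Psmg1 (adjusted p = 0.22). Of the 45 tested members 34, Psmc3ip among them, had their lowest group mean in naive cells. The share of all genes with their lowest mean there was not counted.

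**Figure D1:**
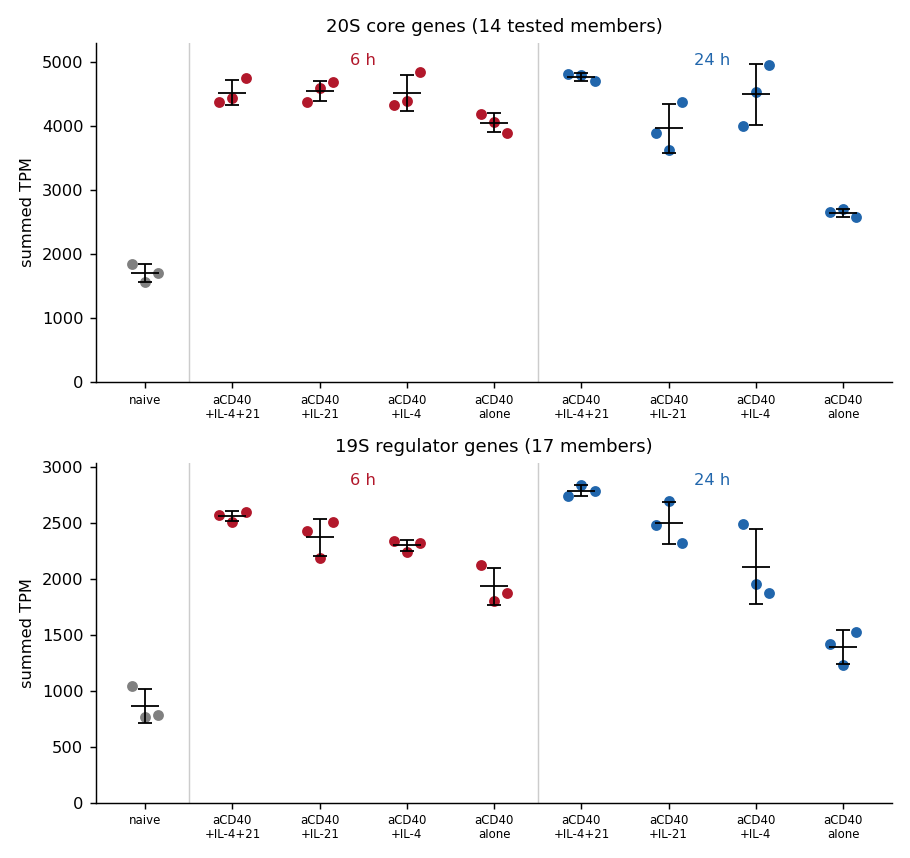
Summed TPM of the 20S core genes and of the 19S cap genes in each library, by group. Points are libraries, horizontal marks are group means and capped bars are the SD. At 24 h both sums are higher in all 9 cytokine libraries than in the anti-CD40 libraries.

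Anti-CD40 alone was compared with naive cells first. After 6 h, 34 of 45 members rose and 0 fell, against 16.6% of all genes tested called higher and 13.3% called lower (29.9% in either direction). The median log2 difference was 1.18 over the members and 0.06 over all genes, on the log2(TPM + 1) scale used throughout. Without the low-mitochondria pair, 37 rose and 0 fell, and under median-of-ratios rescaling 30 rose and 0 fell.

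All 7 tested α-ring genes rose at 6 h, by 0.92 to 2.24. The largest of these differences was that of Psma4, a low and variable gene with a naive mean of 0.999 TPM. Psma7, a gate-forming α subunit, had 505, 480 and 452 TPM after 6 h of anti-CD40, against 212, 178 and 177 TPM in naive cells. Its difference was 1.34 ± 0.10 (SE; adjusted p = 4.8e-10), and the groups did not overlap. Psma5 rose by 1.55 ± 0.14 (adjusted p = 1.0e-08). In the β ring, 6 of 7 genes rose, including all 3 catalytic ones. Psmb6, the caspase-like catalytic subunit, had 607, 595 and 552 TPM with anti-CD40, against 208, 172 and 180 TPM in naive cells, a 3.13-fold higher mean (1.65 ± 0.10; adjusted p = 3.2e-11). Psmb5, the chymotrypsin-like subunit and the main target of bortezomib, had 310, 268 and 257 TPM with anti-CD40, against 166, 100 and 86.2 TPM in naive cells (1.29 ± 0.21; adjusted p = 5.2e-05). Psmb7, the trypsin-like subunit, rose by 1.27 ± 0.19. The exception in the ring was the structural subunit Psmb1, at 41.7, 44.2 and 42.0 TPM with anti-CD40, against 49.8, 35.2 and 44.9 TPM in naive cells (-0.01; adjusted p = 0.99), with overlapping groups.

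In the 19S cap, all 6 ATPase genes and 9 of 11 non-ATPase genes rose at 6 h. Psmd11, a scaffold subunit of the cap's lid, showed the largest well-measured rise there: 99.9, 97.9 and 95.5 TPM with anti-CD40, against 34.9, 19.7 and 23.9 TPM in naive cells (1.901 ± 0.16; adjusted p = 6.0e-09). Psmc3 had 75.8, 36.0 and 27.5 TPM with anti-CD40, against 7.03, 11.7 and 17.2 TPM in naive cells (1.82 ± 0.47; adjusted p = 0.0052), so that its replicates spread widely. Psmc4 rose by 1.16 ± 0.32 and Psmc5 by 1.44 ± 0.24. Psmd14, the deubiquitinase of the lid, had 9.06, 7.66 and 5.16 TPM with anti-CD40, against 6.27, 6.08 and 14.2 TPM in naive cells (-0.18; adjusted p = 0.82). Psmd4, a ubiquitin receptor, differed by 0.57 ± 0.19 (adjusted p = 0.023), a call lost without naive replicate 2, naive replicate 3 or anti-CD40 6 h replicate 1.

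Of the assembly factors, 3 of 7 rose at 6 h: Psmg2 (1.23 ± 0.18), Psmd10 (1.18 ± 0.22) and Psmg4 (0.48 ± 0.17, a call lost under both rescalings and without any 1 of the 3 naive libraries or anti-CD40 6 h replicate 1 or 3). Psmg2 and Psmg4 help to build the 20S core, and Psmd10 chaperones an ATPase of the cap. Psmg2 had 72.3, 51.0 and 46.3 TPM with anti-CD40, against 31.1, 18.98 and 20.6 TPM in naive cells, without overlap. Psmd5 and Psmd9, other chaperones of the ATPase ring, differed by 0.18 and 0.42 without passing the test. The inhibitor gene Psmf1, whose product PI31 binds the 20S core, differed by 0.37 (adjusted p = 0.48).

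**Figure D2:**
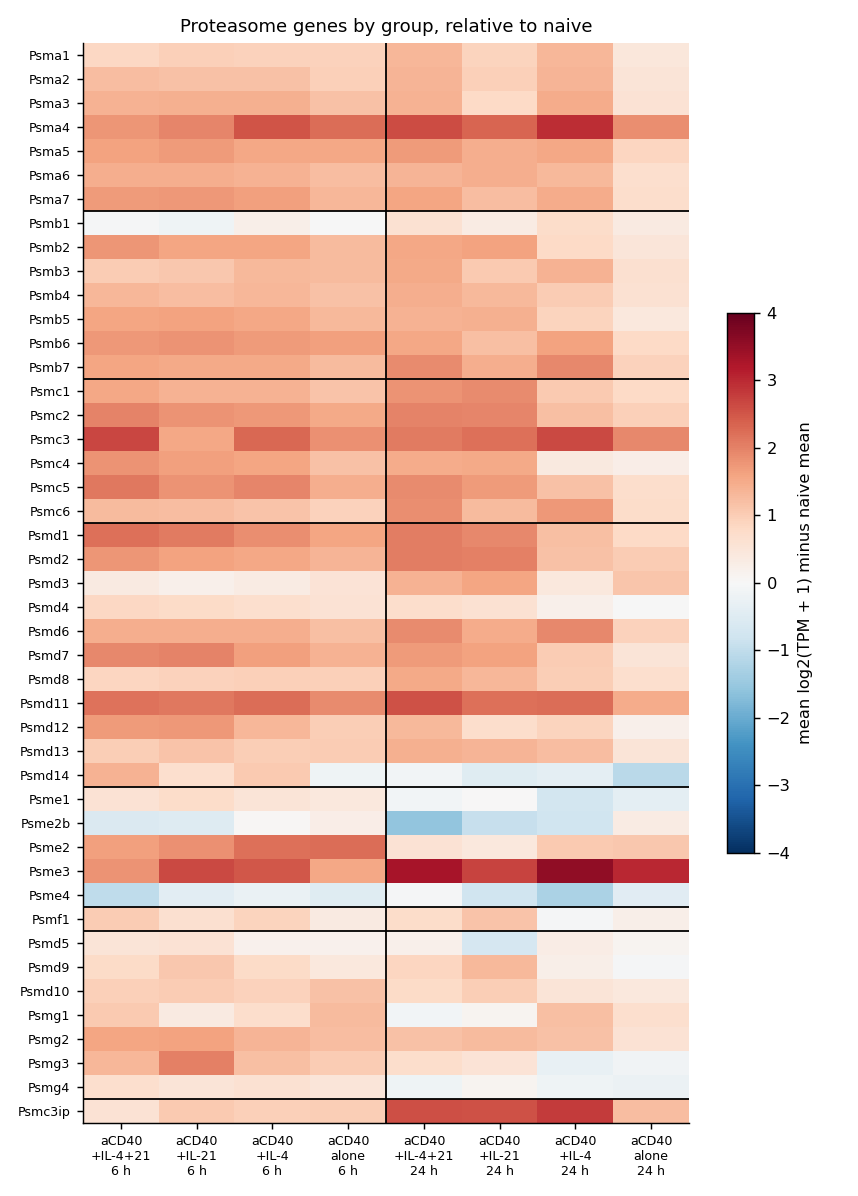
Log2 difference of the group mean from the naive mean for each tested member, one row per gene, with rows grouped by role. Columns run over the 6 h groups and then the 24 h groups, each with both cytokines, IL-21, IL-4 and anti-CD40 alone; among the tested core and 19S rows, Psmb1, Psmd14 and Psmd4 fall below naive in some column and the others lie above it in every column.

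After 24 h of anti-CD40 alone, 25 of 45 members were higher than in naive cells and 0 were lower, against 18.9% of all genes called higher and 7.85% called lower (26.8% in either direction). The median difference was 0.62 over the members and 0.25 over all genes. Psma7 had 315, 302 and 311 TPM with anti-CD40, against 212, 178 and 177 TPM in naive cells (0.71 ± 0.10; adjusted p = 1.0e-05), and Psmb6 had 331, 332 and 314 TPM with anti-CD40 alone, against 208, 172 and 180 TPM in naive cells (0.80 ± 0.10; adjusted p = 2.7e-06). Psmd11 rose by 1.49 ± 0.16 and Psmc3 by 1.92 ± 0.47. This count moved with the scaling. Under median-of-ratios rescaling 12 members were higher and 4 lower, and the calls of Psma7, Psmb6 and Psmb7 were lost; rescaled without mitochondrial, ribosomal protein and pseudogene rows, 21 were higher and 1 lower. Without the low-mitochondria pair 30 were higher and 0 lower.

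Set directly against 6 h, the 24 h anti-CD40 libraries had 19 members lower and 1 higher, against 8.17% of all genes called lower and 16.1% called higher (24.3% in either direction). The members had a median difference of -0.55 and all genes one of 0.15. Psmb6 fell to 331, 332 and 314 TPM at 24 h, against 607, 595 and 552 TPM at 6 h (-0.84 ± 0.10; adjusted p = 2.3e-06). Psmb5 had 163, 130 and 169 TPM at 24 h, against 310, 268 and 257 TPM at 6 h (-0.86 ± 0.21; adjusted p = 0.0051). Psmd7, which pairs with Psmd14 in the lid, fell by 0.90 on the log2 scale. The member that rose was Psme3, at 10.1, 18.6 and 20.5 TPM at 24 h, against 2.84, 6.45 and 6.57 TPM at 6 h (1.48 ± 0.51; adjusted p = 0.037); leaving out any of 5 libraries of these groups (all 3 at 6 h, and replicates 2 and 3 at 24 h) ended that call. The total of 20 called members became 12 without anti-CD40 6 h replicate 1 and 12 without anti-CD40 24 h replicate 2.

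At 6 h few members passed the test when a cytokine was added to anti-CD40, as counted below beside the shares of all genes. The summed 19S and 20S levels were higher. The 19S sum was 2571, 2511 and 2600 TPM with both cytokines, 2425, 2189 and 2506 TPM with IL-21 and 2338, 2240 and 2318 TPM with IL-4, against 2122, 1805 and 1873 TPM with anti-CD40 alone. The 20S sum was 4382, 4447 and 4748 TPM with both cytokines, 4382, 4593 and 4685 TPM with IL-21 and 4328, 4396 and 4841 TPM with IL-4, against 4196, 4059 and 3902 TPM with anti-CD40 alone. For both sums no cytokine library was as low as any anti-CD40 library. The activator sum averaged 1212 TPM with both cytokines, 1368 TPM with IL-21 and 1520 TPM with IL-4, against 1508 TPM with anti-CD40 alone. The median log2 difference over the members was 0.27 with both cytokines, 0.24 with IL-21 and 0.22 with IL-4. Over all genes it was 0.07, 0.10 and 0.02. Of 45 members 32, 35 and 35 had a positive difference, and 31, 30 and 33 lay above the median of all genes. The share of all genes with a positive difference was not counted. These 3 comparisons share their anti-CD40 libraries.

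Both cytokines against anti-CD40 alone at 6 h, a comparison added after the values were seen, gave 3 members higher and 2 lower, against 6.06% of all genes called higher and 6.55% lower (12.6% in either direction). Psmd12 had 63.4, 67.3 and 83.3 TPM with IL-4 and IL-21, against 41.1, 43.6 and 43.1 TPM with anti-CD40 alone (0.72 ± 0.16; adjusted p = 0.0031). Psmd14 had 14.7, 34.9 and 24.7 TPM with IL-4 and IL-21, against 9.06, 7.66 and 5.16 TPM with anti-CD40 alone (1.58 ± 0.45; adjusted p = 0.020), a call lost with no filter on low values and without anti-CD40 replicate 3 or replicate 2 or 3 of the group with both. Psma7 rose by 0.36 ± 0.10, a call lost under both rescalings and without anti-CD40 replicate 2 or 3 or replicate 3 of the group with both. Psme2 fell by 0.60 on the log2 scale, and Psme2b by 0.86, a call lost without anti-CD40 replicate 1 or replicate 3 of the group with both. The count of 5 became 3 without anti-CD40 replicate 3, 2 without replicate 3 of the group with both, and 9 without replicate 1 of the 24 h anti-CD40 and IL-4 group. It was 11 higher and 2 lower without the low-mitochondria pair, 8 and 2 without all 4 libraries of low mitochondrial share, and 7 and 2 under median-of-ratios rescaling.

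With IL-21 at 6 h, 2 members rose and 1 fell, against 7.43% of all genes called higher and 4.68% lower (12.1% in either direction). Psmd12, a scaffold subunit of the lid, had 65.8, 75.5 and 75.1 TPM with IL-21, against 41.1, 43.6 and 43.1 TPM with anti-CD40 alone (0.74 ± 0.16; adjusted p = 0.0026). Psma7 rose by 0.39 ± 0.10, a call lost under both rescalings and without anti-CD40 replicate 3 or IL-21 replicate 2, and Psme2b fell by 0.78 on the log2 scale (adjusted p = 0.018), a call lost without anti-CD40 replicate 1 or IL-21 replicate 2 or 3. The count of 3 became 5 without all 4 libraries of low mitochondrial share, 5 without naive replicate 1, 6 without replicate 1 of the 24 h anti-CD40 and IL-4 group, and 1 without replicate 2 of the 6 h anti-CD40 and IL-21 group. With IL-4, 0 members were called in either direction and 3 had an unadjusted p under 0.05, against 1.65% of all genes called higher and 2.4% lower (4.04% in either direction); leaving out naive replicate 1 or replicate 1 of the 24 h anti-CD40 and IL-4 group gave 1 call. IL-21 added to anti-CD40 and IL-4 gave 1 call, a lower Psme2, against 1.25% of all genes higher and 1.28% lower (2.54% in either direction). IL-4 added to anti-CD40 and IL-21 gave 0 calls and 1 member with an unadjusted p under 0.05, against 1.27% higher and 2.89% lower (4.16% in either direction); 1 call appeared without replicate 1 of the 6 h anti-CD40 and IL-21 group. IL-21 set against IL-4, a comparison added after the values were seen, gave 0 calls and 3 members with an unadjusted p under 0.05, against 5.61% of all genes called higher and 2.78% lower (8.39% in either direction); it gave 1 call without naive replicate 1.

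At 24 h with IL-21, 4 of 7 α-ring genes, 5 of 7 β-ring genes, 4 of 6 ATPase genes, 9 of 11 non-ATPase genes and 2 of 7 assembly factors rose. Of the assembly factors 1 fell, and of 5 tested activators 2 fell, Psme2 and its near copy Psme2b. Added to anti-CD40, IL-21 was followed by a rise of 25 of 45 members and a fall of 3, against 17.8% of all genes called higher and 6.33% lower (24.2% in either direction). The median difference was 0.56 over the members and 0.23 over all genes. Between 22 and 34 members were called when 1 library was left out at a time, 31 rose and 3 fell without the low-mitochondria pair, and 16 rose and 3 fell under median-of-ratios rescaling.

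Of the 6 ATPase genes 4 rose with IL-21, with a median difference of 1.01 over the 6; both rescalings also gave 4. Psmc4 had 177, 231 and 144 TPM with IL-21, against 77.2, 61.3 and 90.4 TPM with anti-CD40 alone, a 2.41-fold higher mean (1.25 ± 0.32; adjusted p = 0.0065). Psmc1 had 239, 304 and 206 TPM with IL-21, against 120, 105 and 127 TPM with anti-CD40 alone (1.07 ± 0.24; adjusted p = 0.0024), and Psmc5 rose by 1.00 ± 0.24. For Psmc4 and Psmc1 every IL-21 library was above every anti-CD40 library. Of the non-ATPase genes 9 of 11 rose. Psmd1, which encodes the cap's largest scaffold, had 124, 147 and 97.9 TPM with IL-21, against 57.6, 43.6 and 66.1 TPM with anti-CD40 alone (1.13 ± 0.24; adjusted p = 0.0016). Psmd8, a lid subunit, had 326, 299 and 317 TPM with IL-21, against 205, 176 and 218 TPM with anti-CD40 alone (0.66 ± 0.11; adjusted p = 0.00016). Psmd2, a scaffold of the base, rose by 0.99 ± 0.27, a call lost without replicate 2 of either group.

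In the 20S core, IL-21 at 24 h was followed by a rise of 4 of 7 α-ring and 5 of 7 β-ring genes. Psmb5 had 315, 321 and 272 TPM with IL-21, against 163, 130 and 169 TPM with anti-CD40 alone (0.98 ± 0.21; adjusted p = 0.0017), and Psmb2, a non-catalytic subunit, rose by 1.13 ± 0.27. Psma6 had 340, 332 and 334 TPM with IL-21, against 209, 164 and 222 TPM with anti-CD40 alone (0.77 ± 0.11; adjusted p = 3.3e-05). Smaller differences in the core depended on scaling: Psma7 (0.52), Psmb6 (0.41) and Psmb7 (0.53) lost their calls under both rescalings, under which 1 of 7 α-ring genes stayed called higher. The assembly factor Psmd9 showed the largest rise of any member, with 39.4, 35.7 and 37.3 TPM with IL-21, against 15.1, 12.6 and 15.1 TPM with anti-CD40 alone (1.33 ± 0.24; adjusted p = 0.00028), 2.62-fold in the means. Psmd5, another chaperone of the ATPase ring, had 5.66, 14.8 and 7.84 TPM with IL-21, against 15.8, 17.3 and 14.3 TPM with anti-CD40 alone (-0.78 ± 0.24; adjusted p = 0.020). Its groups overlapped and the call was lost without replicate 1 or 2 of the anti-CD40 group or replicate 1 or 3 of the IL-21 group.

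IL-4 at 24 h was followed by a rise of 19 members and a fall of 1, against 8.28% of all genes called higher and 23.1% called lower (31.4% in either direction). The members had a median difference of 0.48 and all genes one of -0.31, and 16 to 22 members were called when 1 library was left out at a time. Without the low-mitochondria pair 20 rose and 3 fell. Median-of-ratios rescaling put the all-gene median of this comparison at -0.03 and gave 33 higher and 1 lower, with a member median of 0.90.

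All 7 tested α-ring genes rose with IL-4, by 0.61 to 1.11, and all 7 did so under both rescalings. Psma7 had 507, 545 and 531 TPM with IL-4, against 315, 302 and 311 TPM with anti-CD40 alone (0.77 ± 0.10; adjusted p = 4.1e-06). Psma1 had 354, 553 and 743 TPM with IL-4, against 273, 304 and 276 TPM with anti-CD40 alone (0.89 ± 0.21; adjusted p = 0.0030), with a wide spread among its IL-4 libraries. Psma3 rose by 0.89 ± 0.26; a processed pseudogene on chromosome 6, Gm13835, matches it at 100% over 685 bases and was listed at up to 540 TPM, so reads may be split between these rows. Summed, Psma3 and Gm13835 had 487, 838 and 1066 TPM with IL-4, against 374, 493 and 364 TPM with anti-CD40 alone, so the top anti-CD40 library lay above the lowest IL-4 library. Psma4 (1.11 ± 0.39; adjusted p = 0.032) was low in every library and lost its call with a pseudocount of 0.1 TPM, and without replicate 2 or 3 of either group.

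Of the β ring, 4 genes rose with IL-4. Psmb7 had 290, 468 and 570 TPM with IL-4, against 213, 231 and 201 TPM with anti-CD40 alone, 2.06-fold in the means (0.99 ± 0.19; adjusted p = 0.00043). Psmb6 had 494, 580 and 627 TPM with IL-4, against 331, 332 and 314 TPM with anti-CD40 alone (0.79 ± 0.10; adjusted p = 3.5e-06). In the cap 1 ATPase gene rose, Psmc6, at 187, 311 and 411 TPM with IL-4, against 138, 159 and 135 TPM with anti-CD40 alone (1.00 ± 0.22; adjusted p = 0.0015). The other ATPases did not pass the test. Psmc3 had 72.9, 75.8 and 80.9 TPM with IL-4, against 49.3, 30.6 and 62.9 TPM with anti-CD40 alone, without overlap (0.73; adjusted p = 0.26). For the rest the IL-4 libraries disagreed: Psmc4 had 175, 67.6 and 44.8 TPM with IL-4, against 77.2, 61.3 and 90.4 TPM with anti-CD40 alone (0.10; adjusted p = 0.85). Psmc1, Psmc2 and Psmc5 likewise had their highest IL-4 value in replicate 1, which belongs to the low-mitochondria pair. In the opposite direction, Psmb7, Psmb6 and Psmc6 had their lowest IL-4 value in that replicate. So did the sum of the α-ring genes, at 1792, 2179 and 2584 TPM with IL-4, against 1218, 1253 and 1223 TPM with anti-CD40 alone. Of the non-ATPase genes 5 rose, among them Psmd6, a lid scaffold subunit, at 193, 272 and 327 TPM with IL-4, against 124, 126 and 131 TPM with anti-CD40 alone (1.02 ± 0.16; adjusted p = 6.5e-05).

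**Figure D3:**
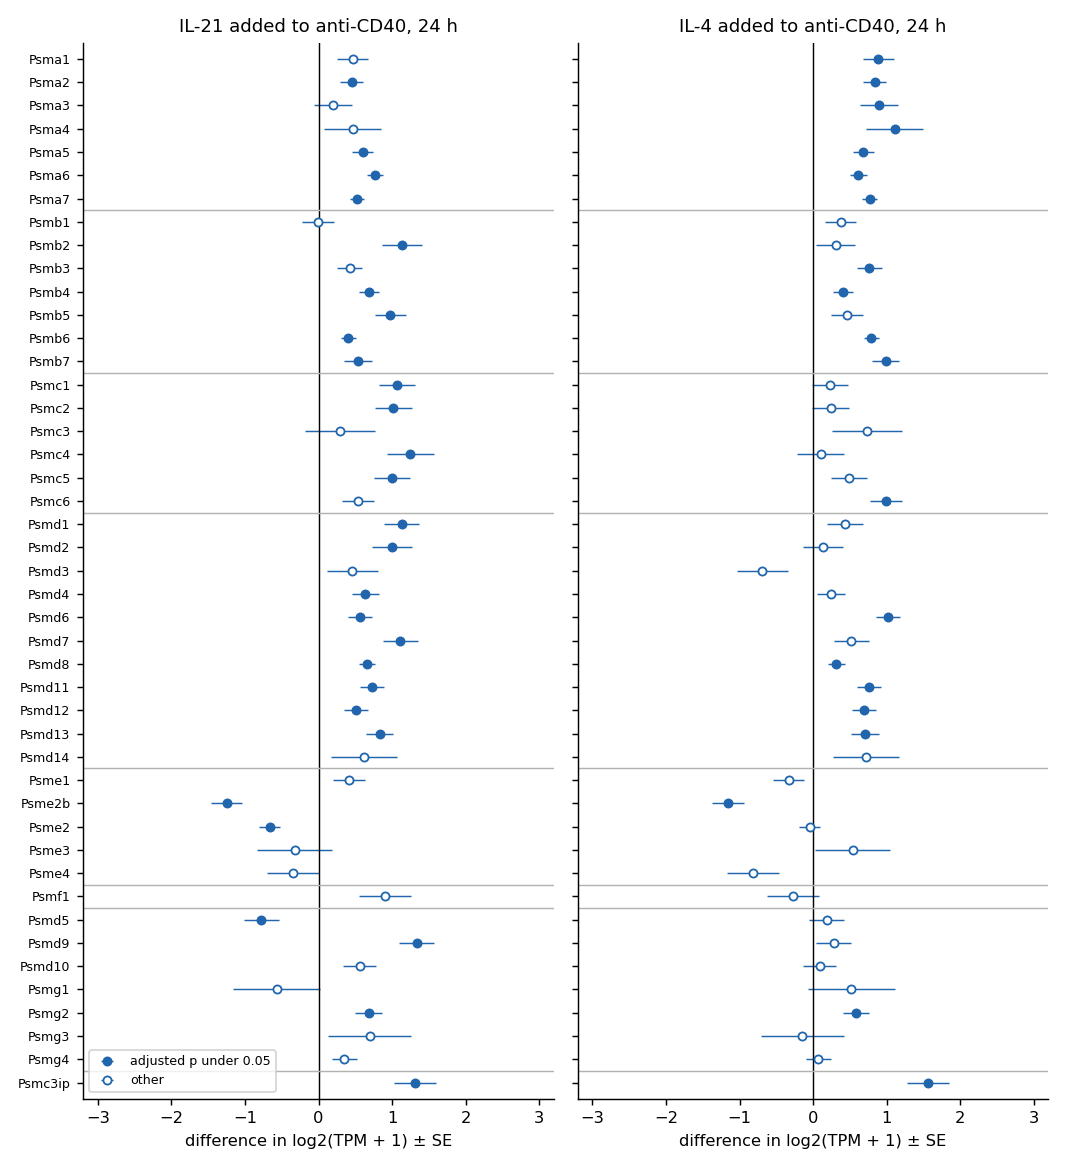
Log2 difference at 24 h when IL-21 (left) or IL-4 (right) was added to anti-CD40, 1 point per tested member, by role. Filled points passed adjusted p = 0.05; with IL-21 the 19S ATPase median was 1.01, and with IL-4 all 7 α-ring points are filled.

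IL-21 and IL-4 were compared directly at 24 h, in a test added after the values were seen. With IL-21, 12 members were higher than with IL-4 and 7 were lower, against 40.8% of all genes called higher and 5.52% called lower (46.3% in either direction). The median difference was 0.10 over the members and 0.55 over all genes, so the share of members called higher was below that of all genes and the share called lower was above it. The members called higher included 3 of 6 ATPase genes, 5 of 11 non-ATPase genes and Psmf1, and those called lower included 3 of 7 α-ring genes. Psmd9 had 39.4, 35.7 and 37.3 TPM with IL-21, against 23.1, 14.1 and 16.4 TPM with IL-4 (1.05 ± 0.24; adjusted p = 0.0017), without overlap. Psmb6 had 438, 421 and 435 TPM with IL-21, against 494, 580 and 627 TPM with IL-4 (-0.39 ± 0.10; adjusted p = 0.0040), also without overlap. Psmc4 had 177, 231 and 144 TPM with IL-21, against 175, 67.6 and 44.8 TPM with IL-4 (1.14 ± 0.32; adjusted p = 0.0069); the groups overlapped through IL-4 replicate 1, and the call was lost without IL-4 replicate 3. Psmf1 had 19.3, 24.1 and 18.6 TPM with IL-21, against 19.9, 7.02 and 4.18 TPM with IL-4 (1.18 ± 0.35), with a call lost without IL-4 replicate 2 or 3.

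The counts of this comparison moved with single libraries and with the scaling. The total of 19 calls became 32 without IL-4 replicate 1, 7 without IL-4 replicate 2, 5 without IL-4 replicate 3, 12 without IL-21 replicate 1 and 9 without IL-21 replicate 2. Median-of-ratios rescaling turned the member median to -0.58 and moved that of all genes to 0.04, with 0 higher and 23 lower, and rescaling without mitochondrial, ribosomal protein and pseudogene rows gave 9 higher and 14 lower with a median of -0.18. The ratio of the summed 19S genes to the summed 20S genes was 0.638, 0.744 and 0.530 with IL-21, 0.622, 0.431 and 0.379 with IL-4, and 0.532, 0.454 and 0.591 with anti-CD40 alone, and the groups overlapped.

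Coding length differed between the roles and moved with the same comparison. The longest coding sequence had a median of 744 bases in the α ring (702 to 789), 720 in the β ring, 1287 in the ATPases and 1167 in the non-ATPase subunits (930 to 2859). Over all tested coding genes without ribosomal protein and mitochondrial genes, the median log2 difference of IL-21 against IL-4 was 0.32 in genes of 111 to 990 bases, 0.60 in genes of 993 to 1791 bases and 0.90 in genes of 1794 to 26397 bases, bins of nearly equal size. The members had medians of -0.10, 0.23 and 0.69 in the same bins, from 28, 14 and 3 genes, each below that of all genes. IL-4 added to anti-CD40 gave medians of -0.08, -0.35 and -0.61 over all genes and 0.53, 0.40 and 0.14 over the members. IL-21 added to anti-CD40 gave medians of 0.27, 0.26 and 0.26 over all genes and 0.53, 0.65 and 0.99 over the members. The part of coding length in the difference between cap and core was not tested. Ribosomal protein shares also differed: 20.9%, 18.3% and 23.9% of listed TPM with IL-21, 23.0%, 29.1% and 29.2% with IL-4, and 26.8%, 29.2% and 24.9% with anti-CD40 alone.

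**Figure D4:**
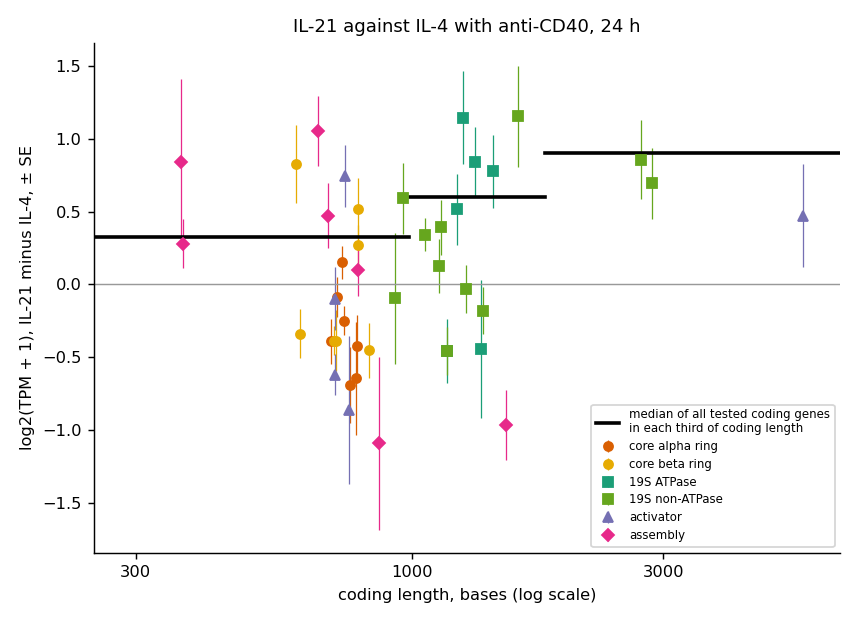
Log2 difference at 24 h against longest coding sequence (log axis, bases) for each tested core, 19S, activator and assembly gene. Black bars are the medians of all tested coding genes in each of 3 bins of coding length; for IL-21 against IL-4 these medians are 0.32, 0.60 and 0.90 from short to long.

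Both cytokines were also set against anti-CD40 alone at 24 h, a comparison added after the values were seen. Of 45 members 29 rose and 2 fell, against 14.5% of all genes called higher and 9.6% lower (24.1% in either direction), with a median of 0.84 over the members and 0.09 over all genes. In this comparison 6 of 7 α-ring, 6 of 7 β-ring, 5 of 6 ATPase, 9 of 11 non-ATPase and 2 of 7 assembly genes rose. Psmd1 had 125, 143 and 132 TPM with IL-4 and IL-21, against 57.6, 43.6 and 66.1 TPM with anti-CD40 alone, 2.39-fold in the means (1.26 ± 0.24; adjusted p = 0.00044). Psmd7 had 174, 192 and 164 TPM with IL-4 and IL-21, against 78.5, 64.4 and 85.3 TPM with anti-CD40 alone (1.21 ± 0.24; adjusted p = 0.00060). The groups of both genes were without overlap. The genes that fell were Psme2 (-0.50 ± 0.14; adjusted p = 0.012), a call lost without replicate 3 of the group with both, and Psme2b (-1.91 ± 0.21). Leaving out 1 library at a time gave 29 to 31 calls, and median-of-ratios rescaling gave 24 higher and 2 lower.

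Both cytokines were set against IL-21 alone at 24 h. IL-4 added to anti-CD40 and IL-21 was followed by a rise of 3 members and a fall of 0, against 2.22% of all genes called higher and 4.53% lower (6.75% in either direction). The members had a median difference of 0.15 and all genes one of -0.14. Psma7 had 585, 576 and 545 TPM in the presence of both, against 447, 407 and 482 TPM with IL-21 alone (0.35 ± 0.10; adjusted p = 0.028), a call lost under median-of-ratios rescaling. Psmd12 had 51.2, 52.7 and 56.2 TPM in the presence of both, against 29.998, 37.7 and 38.1 TPM with IL-21 alone (0.59 ± 0.16; adjusted p = 0.024). Psmd5 rose by 0.85 ± 0.24 (adjusted p = 0.030). The groups of Psma7 and Psmd12 did not overlap. The count of 3 became 0 without replicate 1 of the anti-CD40 and IL-21 group, 6 and 5 without replicates 1 and 3 of the anti-CD40 and IL-4 group, and 0, 1 and 0 without replicates 1, 2 and 3 of the group with both cytokines. It was 6 with a replicate block, and 7 rose and 1 fell without the low-mitochondria pair.

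IL-21 added to anti-CD40 and IL-4 at 24 h was followed by a rise of 13 members and a fall of 2, against 21.8% of all genes called higher and 2.39% lower (24.2% in either direction). The median difference was 0.18 over the members and 0.38 over all genes. Among these 13 were 4 of 6 ATPase genes, 5 of 11 non-ATPase genes and 0 of 7 α-ring genes. Psmd8 had 368, 355 and 342 TPM in the presence of both, against 269, 243 and 232 TPM without IL-21 (0.52 ± 0.11; adjusted p = 0.0025), without overlap. Psmc4 had 162, 190 and 179 TPM with IL-4 and IL-21, against 175, 67.6 and 44.8 TPM without IL-21 (1.11 ± 0.32; adjusted p = 0.017), with overlap. The total of 15 calls became 2 and 3 without replicates 2 and 3 of the anti-CD40 and IL-4 group, and 4, 4 and 2 without replicates 1, 2 and 3 of the group with both cytokines. It was 19 higher and 2 lower without the low-mitochondria pair. Rescaling turned the member median to -0.36 (1 higher and 6 lower, median of ratios) and to -0.06 (7 higher and 2 lower, without mitochondrial, ribosomal protein and pseudogene rows).

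Whether the effect of IL-21 depended on IL-4 was tested with an interaction term. At 6 h 0 members passed and 2 had an unadjusted p under 0.05, against 0.148% of all genes called higher and 0.263% lower (0.412% in either direction). At 24 h 0 were higher and 2 lower, against 3.33% of all genes higher and 2.48% lower (5.8% in either direction), and the median interaction was -0.32 over the members and 0.19 over all genes. Psma6 had 314, 331 and 303 TPM with both cytokines and 322, 273 and 312 TPM with IL-4, while it had 340, 332 and 334 TPM with IL-21 and 209, 164 and 222 TPM with anti-CD40 alone. Its interaction was -0.70 ± 0.16 (adjusted p = 0.010): the added effect of IL-21 was 0.07 with IL-4 present and 0.77 without. The count of 2 became 10 without replicate 1 of the anti-CD40 and IL-4 group, 4 without replicate 2 of the anti-CD40 and IL-21 group, and 1 without anti-CD40 replicate 3, replicate 2 or 3 of the anti-CD40 and IL-4 group, replicate 3 of the anti-CD40 and IL-21 group, or replicate 1 or 2 of the group with both cytokines. Without the low-mitochondria pair it was 2 higher and 9 lower, and without all 4 libraries of low mitochondrial share 2 and 10.

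The activators were read gene by gene. Psme2, the β subunit of PA28, lies on chromosome 14 at 55587441 to 55591113 of GRCm38 on the minus strand, close to Psme1, the α subunit, at 55578123 to 55581529 on the plus strand. Psme2 had 266, 176 and 183 TPM in naive cells, 1006, 913 and 962 TPM after 6 h of anti-CD40, and 446, 406 and 450 TPM after 24 h. After 6 h of anti-CD40 it was 4.61-fold higher than in naive cells in the means (2.22 ± 0.14; adjusted p = 6.9e-11), and at 24 h it was higher than in naive cells by 1.08 ± 0.14. Psme1 had 444, 308 and 316 TPM in naive cells, 515, 432 and 461 TPM at 6 h, and 277, 233 and 297 TPM at 24 h. It differed from naive by 0.41 at 6 h (adjusted p = 0.16) and by -0.39 at 24 h (adjusted p = 0.18), and neither passed the test.

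Psme2 fell with IL-21. At 24 h it had 261, 277 and 281 TPM with IL-21, against 446, 406 and 450 TPM with anti-CD40 alone (-0.67 ± 0.14; adjusted p = 0.0015), and 310, 327 and 285 TPM with IL-4 and IL-21, against 512, 405 and 356 TPM with IL-4 (-0.45 ± 0.14; adjusted p = 0.027). Both pairs were without overlap, and the second call was lost without replicate 1 or 2 of the anti-CD40 and IL-4 group or replicate 1 or 3 of the group with both cytokines. At 6 h it had 606, 707 and 594 TPM with IL-4 and IL-21, against 934, 891 and 1020 TPM with IL-4 (-0.58 ± 0.14; adjusted p = 0.025), a count of 1 that became 0 without any of the 3 libraries with IL-4 or replicate 1 or 3 of the group with both. With IL-21 alone added, the 6 h values were 679, 732 and 766 TPM with IL-21, against 1006, 913 and 962 TPM with anti-CD40 alone (-0.40; adjusted p = 0.070). Psme1 at 24 h had 345, 420 and 313 TPM with IL-21, against 277, 233 and 297 TPM with anti-CD40 alone (0.41; adjusted p = 0.17). IL-4 left Psme2 at a difference of -0.05 at 24 h (adjusted p = 0.84).

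The ratio of Psme1 to Psme2 was 1.67, 1.75 and 1.73 in naive cells, 0.512, 0.474 and 0.479 after 6 h of anti-CD40, and 0.622, 0.573 and 0.660 after 24 h. At 24 h it was 1.02, 1.04 and 1.10 with both cytokines, 1.32, 1.52 and 1.11 with IL-21, and 0.690, 0.460 and 0.407 with IL-4. Every library with IL-21 at 24 h was above 1 and every library without it at that time was below 1. Psme2b on chromosome 11, a near copy of Psme2 with 99.37% identity over 794 bases, may share its reads. The sum of Psme2 and Psme2b was 296, 311 and 306 TPM with IL-21 at 24 h, against 514, 471 and 541 TPM with anti-CD40 alone. Psme2b itself fell at 24 h with IL-21 (-1.25 ± 0.21) and with IL-4 (-1.15 ± 0.21).

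**Figure D5:**
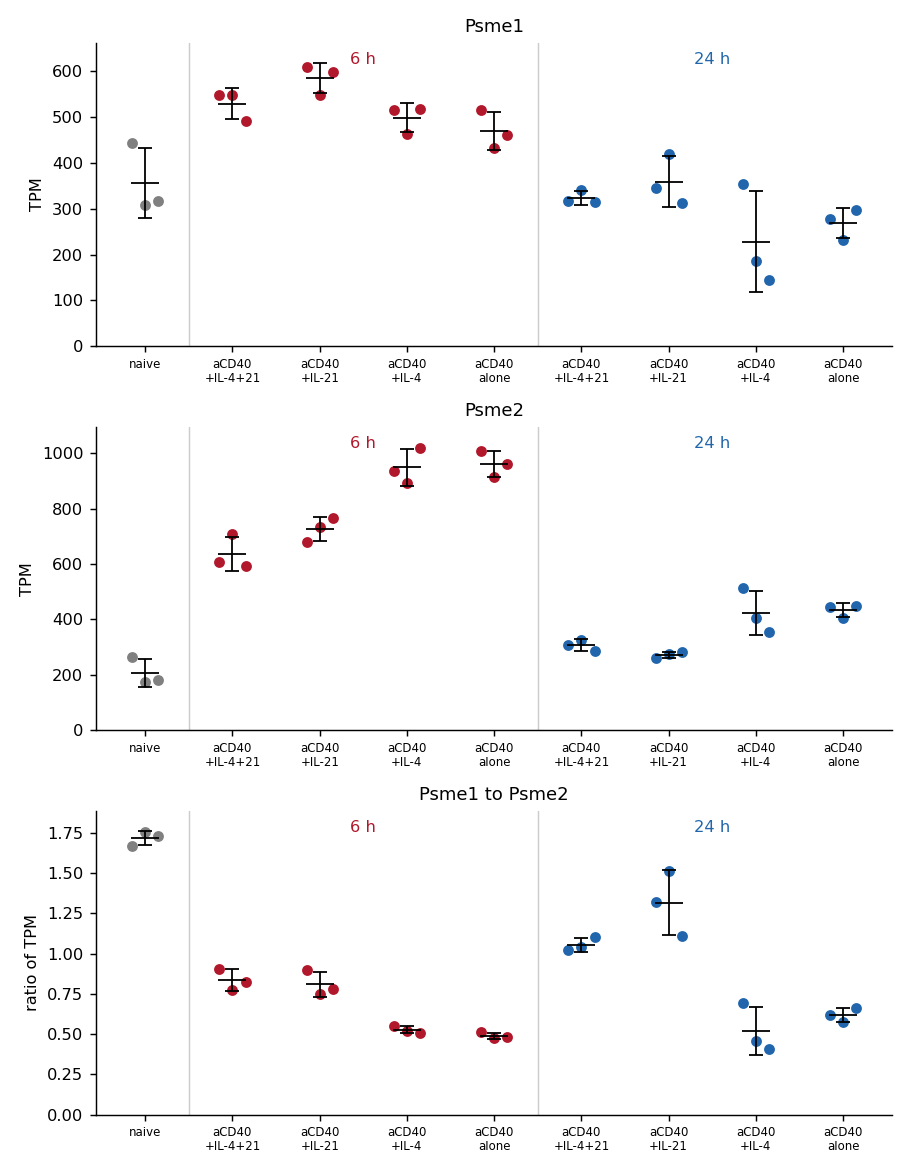
Levels of Psme1 and Psme2 in TPM and the ratio of Psme1 to Psme2 in each library, by group. Points are libraries, horizontal marks are means and capped bars are the SD. The ratio lies between 1.67 and 1.75 in naive cells and below 1 in every stimulated library without IL-21. At 24 h it is above 1 in all 6 libraries with IL-21.

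Psme3 and Psme4, the nuclear PA28γ and PA200 activators, were low. Psme3 had 1.66, 1.16 and 0.515 TPM in naive cells, 2.84, 6.45 and 6.57 TPM after 6 h of anti-CD40 and 10.1, 18.6 and 20.5 TPM after 24 h. It was higher than in naive cells by 3.02 ± 0.51 at 24 h (adjusted p = 0.00012), and all 3 libraries were above all naive ones. Psme4 had 4.26, 2.26 and 1.83 TPM at 24 h with IL-4 and IL-21, against 0.879, 1.04 and 0 TPM with IL-4 (1.22 ± 0.35; adjusted p = 0.018), a call lost under median-of-ratios rescaling, without IL-4 replicate 3 and without replicate 1 of the group with both.

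In each cytokine group the 24 h libraries were also set against the 6 h libraries of the same treatment. With both cytokines 9 members were higher and 5 lower at 24 h, against 20.8% of all genes higher and 9.46% lower (30.2% in either direction), with a member median of -0.09 against 0.12 for all genes. With IL-21, 3 were higher and 6 lower, against 26.2% and 9.3% (35.5% in either direction), with medians of -0.05 and 0.24. With IL-4, 2 were higher and 11 lower, against 8.82% and 16.6% (25.4% in either direction), with medians of -0.19 and -0.13. Psme2 fell in all 3, by 1.04, 1.41 and 1.17 on the log2 scale in the same order, and Psme1 by 0.71, 0.71 and 1.23. Psmd8 had 326, 299 and 317 TPM at 24 h with IL-21, against 247, 228 and 230 TPM at 6 h (0.42 ± 0.11), a call lost under median-of-ratios rescaling. With both cytokines Psmd8 rose by 0.66 ± 0.11.

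Single libraries and the scaling moved these counts. The total of 14 with both cytokines became 9 and 7 without 6 h replicates 1 and 2, and 8, 8 and 9 without 24 h replicates 1, 2 and 3. The total of 13 with IL-4 became 8 and 8 without 6 h replicates 1 and 2, and 26, 8 and 5 without 24 h replicates 1, 2 and 3. The total of 9 with IL-21 became 15 without replicate 1 of the 24 h anti-CD40 and IL-4 group, which enters only the shared estimate of the spread. Under median-of-ratios rescaling the counts were 4 higher and 13 lower with both cytokines, 2 and 18 with IL-21, and 6 and 10 with IL-4. Without the low-mitochondria pair they were 11 and 8, 5 and 10, and 6 and 21.

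The change of the IL-21 effect from 6 h to 24 h was tested directly. In cells given anti-CD40, 1 member passed upwards and 0 downwards, against 3.1% and 1.34% of all genes (4.44% in either direction); in cells given anti-CD40 and IL-4, 2 passed upwards and 0 downwards, against 3.66% and 0.576% (4.24% in either direction). Psmd8 passed in both, by 0.70 ± 0.16 (adjusted p = 0.010) and 0.61 ± 0.16 (adjusted p = 0.028), and lost both calls under median-of-ratios rescaling. Psme4 passed in the second (1.96 ± 0.50; adjusted p = 0.027). The first count became 7 without replicate 1 of the 24 h anti-CD40 and IL-4 group, 3 without its replicate 3 or naive replicate 1, and 2 without replicate 2 of either IL-21 group with anti-CD40, replicate 1 of the 6 h group with both cytokines, or 24 h anti-CD40 replicate 3. The second became 14 without replicate 1 of the 24 h anti-CD40 and IL-4 group, and 0 or 1 without any other library of the 4 groups it compares.

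At 6 h of anti-CD40 the 3 constitutive catalytic genes rose against naive, and 2 of the 3 immunoproteasome genes, Psmb9 and Psmb10, fell. Psmb9, an immunoproteasome subunit and no member, had 67.3, 65.5 and 70.2 TPM after 6 h of anti-CD40, against 186, 134 and 132 TPM in naive cells (-1.13 ± 0.14; adjusted p = 1.3e-06). Psmb8, the immunoproteasome counterpart of Psmb5, had 328, 275 and 317 TPM with anti-CD40, against 655, 408 and 344 TPM in naive cells (-0.56; adjusted p = 0.13). The ratio of summed Psmb8, Psmb9 and Psmb10 to summed Psmb5, Psmb6 and Psmb7 was 2.17, 1.901 and 1.59 in naive cells, 0.440, 0.383 and 0.444 after 6 h of anti-CD40, and 0.851, 0.728 and 0.994 after 24 h. At 24 h it was 0.661, 0.745 and 0.673 with both cytokines, 0.854, 0.915 and 0.679 with IL-21, and 0.952, 0.482 and 0.338 with IL-4.

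Genes that work with the proteasome were counted by list. Of 11 tested associated factors, 5 rose and 1 fell after 6 h of anti-CD40 against naive: Txnl1 (1.18), Adrm1 (0.90), Usp14 (0.78), Pomp (0.75) and Uchl5 (0.68) rose, and Ublcp1, a proteasome phosphatase, fell by 1.39 on the log2 scale. Pomp, the maturation factor of the core, had 246, 260 and 250 TPM with anti-CD40, against 196, 126 and 135 TPM in naive cells. Of 11 tested shuttle and unfolding factors, 5 rose and 1 fell, among them Vcp (1.48), which encodes the p97 unfoldase, and Rad23b (1.04). Of 6 ubiquitin and E1 genes 0 were called. Of all genes 16.6% were called higher and 13.3% lower in that comparison. At 24 h with IL-21, 5 of 11 associated factors and 3 of 11 shuttle factors rose, against 17.8% of all genes called higher. With IL-4 at 24 h, 4 associated factors rose and 2 fell and 0 shuttle factors were called, against 8.28% of all genes higher and 23.1% lower. With IL-21 added to anti-CD40 and IL-4 at 24 h, 7 shuttle factors, 2 associated factors and 2 ubiquitin and E1 genes rose, against 21.8% of all genes called higher; Vcp rose by 1.30 ± 0.30. Of 4 tested genes of the NRF1 and NRF2 pathway, 0 were called at 6 h. With IL-4 at 24 h 3 of them fell: Nfe2l1 by 1.43, Keap1 by 0.80 and Nfe2l2 by 0.77 on the log2 scale. When IL-21 was added to anti-CD40 and IL-4, the same 3 genes rose, Nfe2l1 by 1.40, Nfe2l2 by 1.15 and Keap1 by 1.11. Nfe2l1 had 20.4, 10.7 and 8.03 TPM with IL-4, against 35.9, 26.6 and 42.1 TPM with anti-CD40 alone. The part of Nfe2l1 in the differences of the proteasome genes was not tested.

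Psmc3ip, kept apart as a gene of meiotic recombination, had 2.93, 3.82 and 4.26 TPM in naive cells, 8.62, 7.32 and 8.39 TPM after 6 h of anti-CD40 and 10.6, 10.3 and 8.89 TPM after 24 h. At 24 h it had 25.7, 26.6 and 27.9 TPM with both cytokines, 24.6, 24.1 and 29.5 TPM with IL-21 and 21.7, 32.8 and 42.0 TPM with IL-4. It rose with IL-21 by 1.31 ± 0.29 (adjusted p = 0.0019) and with IL-4 by 1.56 ± 0.29 (adjusted p = 0.00030), and no cytokine library of 24 h was as low as an anti-CD40 library. Its interaction was -1.52 ± 0.40 (adjusted p = 0.026). Psmc3ip overlaps Mlx on the opposite strand, as Psmc3 overlaps Slc39a13, Psmd13 overlaps Sirt3, Psmb7 overlaps Nek6 and Psme1 overlaps Emc9; whether reads were assigned by strand is not given in the sources used here.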

How the data were processed

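RNA was poly(A)-selected from mouse splenic B cells and made into 27 libraries, 3 in each of 9 groups. The authors deposited TPM values per Ensembl gene, quantified with Salmon 1.9.0 on GRCm38 (mm10), per the submitters' processing notes; strand settings are not given in the sources used here, and TPM keeps no read depth. Of 35604 IDs, 35301 were named from GENCODE M21, and 10174 rows were 0 in every library. Among 3468 genes whose median reached 20 TPM, 19 have a 0 in some library.

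Rows reaching 1 TPM in 3 or more libraries entered the test (12147), and log2(TPM + 1) was fitted with limma 3.58.1 in R 4.3.3, with 1 mean per group over all 27 libraries and a variance trend. All adjusted p-values are limma's with Benjamini-Hochberg adjustment over all genes tested, called at 0.05. A log2(TPM + 1) difference understates the change of low genes. The fit was tested on simulated data first. Tables and figures were made in Python 3.11.15 with pandas 2.3.3 and matplotlib 3.10.9, and near copies were found with blastn 2.17.0 (at least 97% identity over 500 bases).

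The members, roles and lists were chosen with earlier results of these data known. Named members were the 4 called members with the largest rise and the 4 with the largest fall in each comparison and a fixed panel of core, 19S, activator, inhibitor and assembly genes. Members named in a comparison outside these rules were chosen after their values were seen. Among them were Psma3, Psma5, Psma6, Psmb1, Psmc2, Psmc3 and Psmd8. Alternatives were a pseudocount of 0.1 TPM, no filter, a filter of 5 TPM, median-of-ratios rescaling, rescaling without mitochondrial, ribosomal protein and pseudogene rows, a replicate block, leaving out each library, and leaving out the low-mitochondria pair, which was known from earlier results; the comparisons of IL-21 with IL-4 and of both cytokines with anti-CD40 alone, and leaving out all 4 libraries of low mitochondrial share, were added after seeing the data. Same-numbered libraries deviated together (every pair's correlation of deviations over 0.1) in 4 comparisons, all at 6 h: IL-21 added to anti-CD40 (0.186 to 0.335) or added beside IL-4 (0.183 to 0.377), IL-4 added to anti-CD40 (0.107 to 0.382) and IL-21 against IL-4 (0.173 to 0.353).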

Additional observations from a re-analysis of the deposited data

Results flagged for a closer look

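In 5 results the effect of IL-21 differed between conditions by a limma test of the difference itself. At 24 h the effect of IL-21 on Psma6 was smaller with IL-4 than without, with an interaction of -0.70 ± 0.16 (SE; adjusted p = 0.010). For Psmc3ip, the recombination factor, the same interaction was -1.52 ± 0.40 (adjusted p = 0.026), a call lost without anti-CD40 replicate 3, replicate 2 or 3 of the anti-CD40 and IL-4 group, replicate 3 of the anti-CD40 and IL-21 group, or replicate 1 or 2 of the group with both cytokines.

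The effect of IL-21 on Psmd8 was larger at 24 h than at 6 h, by 0.70 ± 0.16 with anti-CD40 (adjusted p = 0.010) and by 0.61 ± 0.16 where IL-4 was also present (adjusted p = 0.028). The first call was lost under median-of-ratios rescaling, and the second under both rescalings and without any of 9 libraries of the 4 groups. The effect on Psme4 with anti-CD40 and IL-4 was larger at 24 h by 1.96 ± 0.50 (adjusted p = 0.027), in a gene listed at 0 to 4.26 TPM, and the call was lost without any of 6 libraries.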

How the results depend on the processing

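Of 162 results for named genes, 84 kept their call under every alternative run. Of 5662 recomputed values 5295 stayed on their side of the threshold, 367 lost it and 0 reversed. Only results called in the main fit entered. Many of the recomputed values left out a library of no compared group, which changes only the shared estimate of the spread. Where every pair of same-numbered libraries deviated together, a replicate block left the counts of called members at 3, 1, 0 and 0. In the other comparisons the block gave 6 for IL-4 added beside IL-21 at 24 h. It also gave 6 for the change of the IL-21 effect with anti-CD40, and moved no other count by over 1.5 times. For 23 of 27 libraries, deviations from the group mean correlated best on average with those of same-numbered libraries in other groups. Counts of called members moved as follows. Median-of-ratios rescaling gave 16 for anti-CD40 against naive at 24 h, 6 for IL-21 with anti-CD40 at 6 h, 2 and 7 for IL-21 added beside IL-4 at 6 h and 24 h, 1 and 34 for IL-4 with anti-CD40 at 6 h and 24 h, 20 for 24 h against 6 h with IL-21, 9 for the interaction at 24 h, 2 and 1 for the changes of the IL-21 effect, 2 for IL-21 against IL-4 at 6 h, and 9 for both cytokines against anti-CD40 at 6 h. Rescaling without mitochondrial, ribosomal protein and pseudogene rows gave 2 and 9 for IL-21 added beside IL-4 at 6 h and 24 h, 17 for 24 h against 6 h with IL-21, 4 for the interaction at 24 h, 2 and 1 for the changes, and 2 for IL-21 against IL-4 at 6 h. No filter gave 7 for IL-21 added beside IL-4 at 24 h, 6 and 8 for 24 h against 6 h with IL-4 and with both cytokines, and 2 and 1 for the changes; a 5 TPM filter gave 3 and 1 for the changes. Leaving out the low-mitochondria pair gave 7 for IL-21 and 2 for IL-4 with anti-CD40 at 6 h, 8 for IL-4 added beside IL-21 at 24 h, 27 and 15 for 24 h against 6 h with IL-4 and with IL-21, 11 for the interaction at 24 h, 10 and 15 for the changes, 1 and 32 for IL-21 against IL-4 at 6 h and 24 h, and 13 for both cytokines against anti-CD40 at 6 h. Leaving out all 4 libraries of low mitochondrial share, added after seeing the data, gave 5 for IL-21 and 10 for both cytokines with anti-CD40 at 6 h, 8 for IL-4 added beside IL-21 at 24 h, 26 for 24 h against 6 h with IL-4, 12 for the interaction at 24 h, 11 and 15 for the changes, and 1 and 32 for IL-21 against IL-4 at 6 h and 24 h. The cause of these moves was not tested.

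With 1 library left out at a time, 43 to 44 members passed the F test. Against naive, 31 to 35 were called at 6 h and 18 to 28 at 24 h. For IL-21 the ranges were 1 to 6 at 6 h and 22 to 34 at 24 h with anti-CD40, and 0 to 1 and 2 to 19 with anti-CD40 and IL-4. For IL-4 they were 0 to 1 and 16 to 22 with anti-CD40, and 0 to 1 and 0 to 6 with anti-CD40 and IL-21. For 24 h against 6 h they were 12 to 26 with anti-CD40, 5 to 26 with IL-4, 9 to 15 with IL-21 and 7 to 17 with both. The interactions gave 0 to 0 and 1 to 10, the changes 1 to 7 and 0 to 14, IL-21 against IL-4 0 to 1 at 6 h and 5 to 32 at 24 h, and both cytokines against anti-CD40 2 to 9 at 6 h and 29 to 31 at 24 h.

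Groups of 3 libraries and TPM without read totals limit the precision, most for Psma4, Psmd3, Psmd14, Psme3, Psme4, Psmg1 and Psmg3. TPM is a share of a library, so a rise of some genes lowers others, and counts at 24 h moved with the scaling.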
